A study of Drosophila melanogaster with 33 samples.

Results

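Drosophila eye-antennal discs labelled as carrying clones with active Yorkie (Yki) and a mutation of its partner Scalloped (Sd) held less messenger RNA of the JAK-STAT ligands, the wing gene vg and most other Yki target genes tested than discs with active Yki alone, and more of most genes tested of retinal, neuronal and antennal differentiation. The libraries labelled with both also read yki itself lower than those with active Yki alone in both runs, and in run 1 below every control. The mutation of sd and a lower yki level therefore cannot be told apart. The comparison was between 5 libraries labelled yki3SA sd- and 6 libraries labelled yki3SA, which are 11 of the 33 libraries of the study, chosen by their labels alone. Eye-antennal discs are the larval epithelia that form the adult eye, antenna and head capsule. Each sample pooled 30 or more discs dissected at 5 days of development after the eggs were laid, and polyadenylated RNA was sequenced from its 3' end.

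All 11 samples carried MARCM clones, in which recombination by FLP in the eye-antennal disc makes cells that lose Gal80 and so express GFP and any other UAS transgene. UAS-yki3SA encodes Yki with altered inhibitory phosphorylation sites. In run 1 the 5 yki3SA samples were FRT19A over tub-Gal80 FRT19A, with ey-FLP, Act5C<y+<Gal4 and UAS-GFP on the second chromosome and UAS-yki3SA on the third. The 3 yki3SA sd- samples of run 1 and both of run 2 had the same transgenes with the sd allele sd47M on the FRT19A chromosome. The single yki3SA sample of run 2 was built on another chromosome arm and with another driver (FRT42D over FRT42D tub-Gal80, y w ey-FLP, tub-Gal4, UAS-GFP and UAS-yki3SA). Within run 2 the loss of sd, the arm, the driver and the yki level therefore cannot be told apart. The MARCM control and sd- samples, used here for reference levels, lacked UAS-yki3SA. Controls were FRT19A over tub-Gal80 FRT19A with ey-FLP and Act5C<y+<Gal4 in run 1 (5 libraries) and FRT42D with tub-Gal4 in run 2 (2 libraries), and sd- was sd47M FRT19A in both runs (3 and 2 libraries). Discs are mosaics, so each library holds RNA of clone cells and of the other cells of the disc. Nothing states that the samples of a group came from separate crosses, so p-values reflect only how much these samples vary.

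Hippo signalling controls organ growth by holding back Yki, a co-activator of transcription. Yki stays in the cytoplasm once Warts (Wts), a kinase, has phosphorylated it. Yki binds no DNA itself, and Sd, a protein of the TEAD family, brings it to many of its target genes. Without Yki, Sd represses such genes together with the corepressor Tgi. In the eye disc, Yki activity drives proliferation and survival, while the morphogenetic furrow sweeps across the epithelium and leaves differentiating photoreceptor clusters behind it.

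Library totals were 5838706 to 14695172 counts for yki3SA and 4874192 to 9946422 for yki3SA sd- in run 1, and 18528214 against 17071389 and 18516696 in run 2, with 6787 to 8995 genes at 10 or more counts. The 5 yki3SA libraries of run 1 differed from each other by a chi-square per degree of freedom of 2.20 to 39.4, and the 3 yki3SA sd- libraries of run 1 by 94.9 to 225.8. Scaling factors were 0.742 to 0.877 in run 1 and 1.27 to 1.64 in run 2 over these 11 libraries, so levels, given as normalised counts (CPM) that include these factors, are compared within a run.

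The transcripts of the manipulated genes were read first. The gene sd (X:15804370-15827682 in dm6) was at 701, 739.6, 725, 682 and 673 CPM in the yki3SA libraries of run 1 and at 391, 278 and 301 in those labelled yki3SA sd-. In run 2 it was at 498 against 215 and 205. Every yki3SA sd- library was below every yki3SA library of its run, and 42% of all genes showed no overlap in either run. The log2 fold change of sd was -1.13 ± 0.11 (SE), adjusted p = 2.25e-08 (edgeR quasi-likelihood test, Benjamini-Hochberg adjusted, as for all adjusted p-values). Discs are mosaic and the place of the tags relative to the sd47M lesion was not looked up, so this level is no check of the allele.

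For yki the levels were 56.3, 47.7, 49.9, 51.9 and 85.5 CPM in the yki3SA libraries of run 1 and 5.401, 2.87 and 10.4 in those labelled yki3SA sd-. In run 2 yki was at 2146 CPM against 99.1 and 110.2. The run 1 controls stood at 28.1, 19.9, 28.4, 56.3 and 60.6 CPM. So the run 1 libraries labelled yki3SA sd- were below all run 1 controls in yki, although their label includes UAS-yki3SA, while those of run 2 were above the run 2 controls (67.1 and 64.1). The log2 fold change of yki over both runs was -3.29 ± 0.81 (SE), adjusted p = 0.00209, and without the run 2 yki3SA library it was -1.72 with an adjusted p of 0.0782. No source used here says whether 3' tags of the transgene count toward yki, and one sd- library of run 1 also read low (71.7, 66.00 and 1.45 CPM). The directions below are therefore those of libraries labelled yki3SA sd-. Among these, replicate 2 of run 1 also stood apart in the noncoding RNA CR40469, at 1899 CPM beside 15947 and 21280, and whether it mixes genotypes was not tested. Without that library 4369 genes passed, 2272 rising and 2097 falling, and none of the 149 named genes lost its call or turned. The kinase gene wts was at 409 to 577 CPM in yki3SA and 230.4 to 436 in yki3SA sd- of run 1, groups that overlapped, with a log2 fold change of -0.60 ± 0.15 (SE), adjusted p = 0.00266. In run 1 alone the adjusted p of wts was 0.0522.

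The libraries labelled yki3SA sd- differed from yki3SA in about as many genes downward as upward. Of 8927 genes tested, 4731 (53%) passed an adjusted p of 0.05. Of these 2226 (24.9%) rose and 2505 (28.1%) fell in yki3SA sd- against yki3SA. Large changes were mostly rises. At least 2-fold changes were called for 2412 genes (27%), with 1381 rises (15.5%) and 1031 falls (11.5%), and at least 4-fold changes numbered 777 rises and 266 falls. The median log2 fold change over all genes tested was -0.08. A list whose counts lie near the shares of all genes, 24.9% rising and 28.1% falling, shows nothing particular to it. Without a term for the run, 2317 genes passed (1259 rising and 1058 falling). In bulk discs, fewer cells of a type and less RNA per cell cannot be told apart, here or in any result below.

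**Figure D1:**
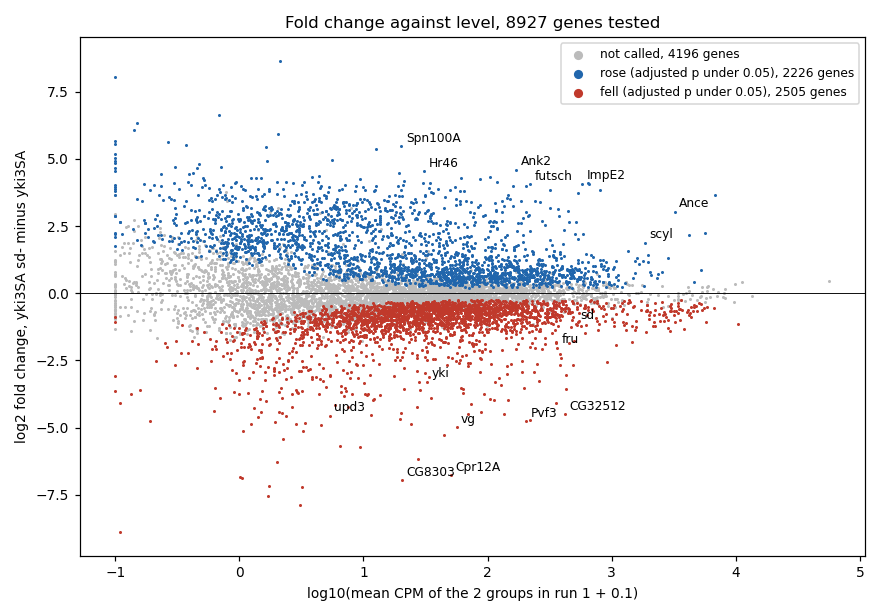
Log2 fold change of yki3SA sd- minus yki3SA over both runs (vertical axis) against the mean level of both groups in run 1 as log10(CPM + 0.1) (horizontal axis), with 1 point per gene tested and colours for genes that rose, fell or did not pass. Of the 8927 genes, 2226 rose and 2505 fell, and vg, Pvf3 and CG32512 stand among the genes above 10 CPM that fell furthest.

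Among the 15 genes with the largest falls at a mean of at least 10 CPM were signalling ligands, a wing selector and cuticle proteins. The selector gene vg, whose protein binds Sd in the wing disc, was at 125, 109, 114, 94.6 and 102 CPM in the run 1 yki3SA libraries and 2.44, 4.07 and 2.75 in yki3SA sd-. In run 2 it was at 63.99 against 2.37 and 2.04. The groups were far apart in both runs, and the log2 fold change was -4.98 ± 0.20 (SE), adjusted p = 7.6e-14. Pvf3 (2L:7098188-7157695), a ligand of the PDGF and VEGF receptor homologue Pvr, was at 463, 380.2, 384, 383 and 363 CPM in yki3SA and 12.9, 11.02 and 11.9 in yki3SA sd- of run 1. In run 2 it was at 148 against 7.08 and 8.18, and its log2 fold change was -4.77 ± 0.18 (SE), adjusted p = 2.99e-14. All yki3SA libraries were far above all yki3SA sd- libraries of their run. The Spätzle family ligand gene spz5 was at 113 to 147 CPM in yki3SA and 7.25 to 8.49 in yki3SA sd- of run 1, with a log2 fold change of -4.49 ± 0.29 (SE), adjusted p = 4.7e-11. Its fall differed between the runs (adjusted p of the difference = 0.00852), from 259 to 4.47 and 5.96 CPM in run 2.

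CG8303 had the largest fall of these 15. It was at 33.4, 35.6, 40.5, 37.9 and 53.2 CPM in yki3SA and 0.257, 0 and 0.5003 in yki3SA sd- of run 1, and at 379 against 1.99 and 1.79 in run 2. The log2 fold change was -6.97 ± 0.44 (SE), adjusted p = 3.89e-11. The cuticle protein genes Cpr12A (-6.77 ± 0.39) and Lcp9 (-4.87 ± 0.51) fell with it, as did CG14608, now named thw (-6.18 ± 0.33). CG32512 (X:21062277-21067540), at 719.5 to 922 CPM in yki3SA and 25.7 to 77.1 in yki3SA sd- of run 1, fell by 4.50 on the log2 scale. The others were CG11529, CG32444, CG7294, CG17104, CG9411, CR43927 and the JAK-STAT ligand gene upd3, with log2 fold changes from -5.73 for CG11529 to -4.53 for CR43927. For all 15 the yki3SA and yki3SA sd- libraries of run 1 did not overlap, which the rule for naming them required and which held for 43.7% of all genes (42% in both runs).

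**Figure D2:**
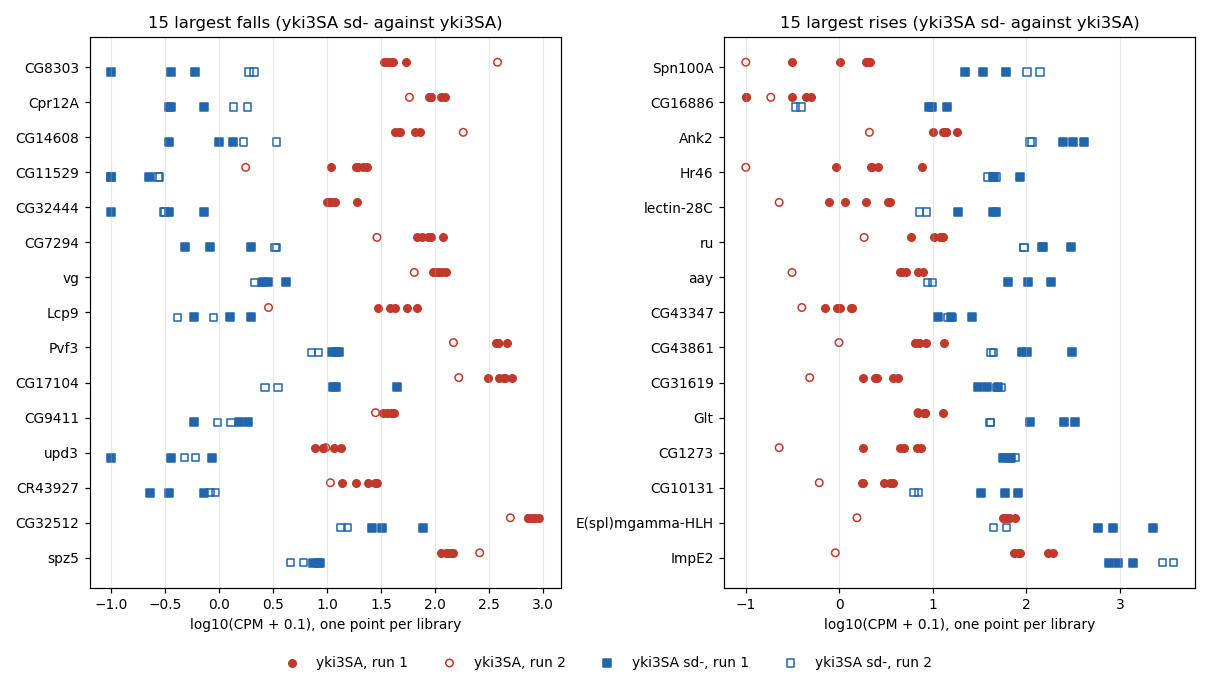
Levels of the 15 genes with the largest falls (left) and the 15 with the largest rises (right) in yki3SA sd- against yki3SA, as log10(CPM + 0.1), with 1 point per library, circles for yki3SA, squares for yki3SA sd-, filled for run 1 and open for run 2. For CG8303 the run 1 values are 33.4 to 53.2 CPM in yki3SA and 0 to 0.5003 in yki3SA sd-.

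Of 20 tested genes listed as Yki targets, 14 fell, 1 rose and 5 did not pass. Their median log2 fold change was -0.74, beside -0.08 over all genes. The unpaired genes upd2, upd3 and upd1 (os in the table) lie near each other on the X chromosome (X:18240654-18243284, X:18277233-18284596 and X:18305354-18309291) and encode the cytokines that activate the JAK-STAT receptor Domeless. Values of os were 27.9, 23.4, 24.9, 23.6 and 22.6 CPM in the run 1 yki3SA libraries and 2.19, 3.11 and 1.88 in yki3SA sd-. In run 2 they were 53.2 against 2.06 and 1.901, and the log2 fold change was -3.80 ± 0.25 (SE), adjusted p = 9.24e-11. Values of upd3 were 9.14, 7.63, 8.98, 11.6 and 13.3 CPM in yki3SA and 0.257, 0 and 0.751 in yki3SA sd- of run 1, and 9.597 against 0.378 and 0.502 in run 2, with a log2 fold change of -4.55 ± 0.48 (SE), adjusted p = 8.19e-08. The third ligand gene, upd2, was at 7.08 to 10.1 CPM in yki3SA and 0 to 0.129 in yki3SA sd- of run 1, with a log2 fold change of -4.90 ± 0.54 (SE), adjusted p = 1.84e-07. All 3 ligand genes were lower in every yki3SA sd- library than in any yki3SA library of the same run. Over all genes 42% showed no overlap in either run, and the rule that named upd3 among the largest falls required it in run 1.

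Ilp8, which encodes a relaxin-like hormone that delays metamorphosis when discs are damaged or overgrown, was at 5.52 to 11.7 CPM in yki3SA and 0.958 to 1.54 in yki3SA sd- of run 1. Its log2 fold change was -3.07 ± 0.47 (SE), adjusted p = 1.41e-05. The upstream Hippo gene kibra (-2.94), the growth and stemness gene chinmo (-2.66), the Golgi kinase gene fj (-1.18) and the glypican genes dally (-1.08) and dlp (-0.77) also fell. The falls of ex (-0.89), dm, which encodes Myc (-0.71), th, which encodes the caspase inhibitor Diap1 (-0.46), vn (-0.45) and CycE (-0.34) were smaller. Run 1 values of th were 423 to 499.8 CPM in yki3SA and 148 to 441 in yki3SA sd-, so that these groups overlapped. The 5 that did not pass were wg, Mer, Iap2, E2f and crb, with log2 fold changes from -0.17 to 0.08. The Notch ligand gene Ser was the one that rose (0.74). In run 1 alone 11 of the 20 fell and 1 rose, and with no run term 7 fell.

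Along the JAK-STAT pathway the ligands fell while the receptor and signal transducer did not pass. Of 11 tested genes 6 fell, 1 rose and 4 did not pass, with a median of -0.37. Besides the ligands, apt fell from between 72.5 and 113 CPM to between 18.9 and 30.7 CPM in run 1 (log2 fold change -2.60 ± 0.26, adjusted p = 3.71e-08). The feedback inhibitor Socs36E (-0.63) and the phosphatase gene Ptp61F (-0.37) fell as well. The receptor gene dome and the transcription factor gene Stat92E had log2 fold changes of -0.11 and 0.12 and did not pass. The kinase gene hop rose (1.08 ± 0.24).

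The Hippo pathway components showed no common direction, with 9 of 31 tested rising, 6 falling and 16 not passing (median 0.14), beside 24.9% and 28.1% of all genes. Schip1 (CG5375 in the table), an adaptor that acts with the kinase Tao upstream of Hippo, was at 1.41 to 3.49 CPM in yki3SA and 16.9 to 40.96 in yki3SA sd- of run 1, with a log2 fold change of 3.06 ± 0.27 (SE), adjusted p = 4.71e-09. Tgi, the corepressor partner of Sd, was at 34.9 to 48.00 CPM in yki3SA and 18.3 to 28.4 in yki3SA sd- of run 1 and fell by 0.84 on the log2 scale. The gene mats, whose protein activates Wts, rose (0.81), and log2 fold changes of hpo (0.37) and sav (-0.06) did not pass.

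Genes of the JNK pathway and of wound response moved in both directions. Of 26 tested, 14 fell and 8 rose (median -0.62), beside 28.1% falling and 24.9% rising over all genes. The count of rises was near its share. The JNK target scaf, a protease homologue, was at 50.5, 48.5, 51.8, 75.04 and 114 CPM in yki3SA and 1.67, 0.958 and 1.75 in yki3SA sd- of run 1 and at 815 against 68.8 and 51.1 in run 2. Its log2 fold change was -3.89 ± 0.65 (SE), adjusted p = 4.3e-05. Timp, the inhibitor of matrix metalloproteinases, fell from between 9.85 and 17.1 CPM to between 0.257 and 1.88 CPM in run 1 (-3.62 ± 0.41 on the log2 scale), and Pvf1, a second ligand of Pvr, from between 28.8 and 41.3 CPM to between 1.68 and 8.51 (-2.37 ± 0.32). The metalloproteinase genes moved in opposite directions. Mmp1 fell (-1.44 ± 0.32) and Mmp2 rose (3.08 ± 0.29), from between 74.1 and 129.7 CPM to between 631 and 902 CPM in run 1. The genes of the AP-1 subunits Jun (Jra, -1.39) and Fos (kay, -1.07), of Atf3 (-1.34) and of the phosphatase Puckered (puc, -0.66) fell. The kinase gene hep fell slightly (-0.25), and bsk, which encodes JNK, did not pass (-0.17). The ligand gene egr (1.23 ± 0.24) and its adaptor Traf4 (1.90 ± 0.17) rose.

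Of 21 tested selectors of other discs 5 fell and 7 rose (median 0.38), counts near those over all genes (28.1% falling and 24.9% rising), and 3 fell without yki3SA sd- replicate 1. Beside vg, the homeobox gene Dr fell from between 13.2 and 17.6 CPM to between 1.44 and 2.19 CPM in run 1 (-3.15 ± 0.26 on the log2 scale), and the GATA factor gene grn from 149, 140.2, 137, 159 and 182 to 16.6, 19.9 and 22.8 CPM (log2 fold change -2.94 ± 0.14, adjusted p = 4.08e-13). For grn the run 2 values were 74.8 against 10.1 and 10.3, and no library of one group reached the other, beside 42% of all genes without overlap in either run. The Hox gene Scr rose (2.95 ± 0.46), at 0.272 to 1.58 CPM in yki3SA and 4.63 to 9.82 in yki3SA sd- of run 1.

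Growth and division genes were lower as a group, with falls that were mostly under 2-fold. Of 35 tested genes of the cell cycle and DNA replication 21 fell, 1 rose (CycD, 0.87) and 13 did not pass (median -0.50). RnrL, the large subunit of ribonucleotide reductase, was at 203, 206, 198, 196 and 199.98 CPM in yki3SA and 54.7, 62.5 and 106 in yki3SA sd- of run 1, and at 242 against 95.5 and 101 in run 2. Its log2 fold change was -1.36 ± 0.13 (SE), adjusted p = 3.29e-08. The primase gene Prim1 (DNApol-alpha50, -1.74 ± 0.21), the retinoblastoma homologue Rbf (-1.19 ± 0.29) and the helicase gene Mcm5 (-1.19 ± 0.17) fell, as did the mitotic phosphatase gene stg (-1.13 ± 0.20). In run 1 alone 14 of the 35 fell and 7 rose, beside 26.4% falling and 27.4% rising over all genes there. The median of these genes was -0.34 within run 1 and -0.76 within run 2, where arm and driver differed too.

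Of 24 tested genes of ribosome biogenesis and Myc 11 fell and 1 rose (median -0.31). The nucleolar methyltransferase gene Fib was at 242, 265, 252, 326 and 338 CPM in yki3SA and 63.5, 18.4 and 167 in yki3SA sd- of run 1, with a log2 fold change of -1.43 ± 0.34 (SE), adjusted p = 0.0016. The 3 yki3SA sd- libraries differed among themselves more than the yki3SA libraries did. Ns3 (-1.01 ± 0.21), Tif-IA (-0.81 ± 0.28) and Nle (-0.79 ± 0.32) fell too, of which Tif-IA and Nle (adjusted p = 0.0203 and 0.0422) missed the threshold when yki3SA sd- replicate 1 was left out (adjusted p = 0.109 and 0.154). Without yki3SA sd- replicate 1, 7 fell. In run 1 alone 5 of the 24 fell, which is no more than the 26.4% of all genes that fell there, and in run 2 alone 23 fell, beside 33.1% of all genes.

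Of 16 tested apoptosis genes 5 rose and 4 fell (median 0.08), counts near those over all genes (24.9% and 28.1%). The inhibitor gene Bruce rose from between 83.2 and 100.2 CPM to between 198 and 417 CPM in run 1 (1.37 ± 0.23 on the log2 scale), egr as above, and Ark, which encodes the apoptosome protein Dark, by 1.13 ± 0.29. The gene p53 fell (-1.06 ± 0.28). Of 20 tested genes that restrain insulin and TOR signalling or belong to that pathway, 5 rose and 1 fell (median 0.13). The count of rises was near the 24.9% over all genes, and falls were fewer than the 28.1% over all genes. The hypoxia-induced TOR inhibitor scyl was at 770.2, 728, 713, 843 and 836 CPM in yki3SA and 2709, 3577 and 2520.2 in yki3SA sd- of run 1 and at 67.6 against 246 and 246 in run 2 (log2 fold change 1.88 ± 0.10, adjusted p = 3.26e-12). Its paralogue chrb rose from between 116 and 183 CPM to between 527 and 751 CPM in run 1 (2.36 ± 0.17), and Sesn (1.99 ± 0.34) and Sdr (1.81 ± 0.27) rose as well. Of 15 tested genes of glycolysis 6 rose and 2 fell (median 0.07), among them the rises of Treh (2.06 ± 0.22), Pgk (1.35 ± 0.26), Pfk (1.15 ± 0.10) and Tpi (1.03 ± 0.12).

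Genes of very long chain lipid synthesis were lower, with 9 of 13 tested falling and 2 rising (median -0.68). The elongase gene bond fell from between 13.5 and 30.1 CPM to between 0 and 2.88 CPM in run 1 (-3.94 ± 0.55 on the log2 scale). The fatty acid synthase gene FASN3 (CG17374) fell by 3.77 and the elongase gene sit (CG5278) by 3.66. The reductase gene spidey (CG1444) rose (2.57 ± 0.26), at 1.498 to 4.77 CPM in yki3SA and 12.6 to 28.9 in yki3SA sd- of run 1. Genes of tracheal cells moved alongside, with 6 of 10 tested markers falling and 2 rising (median -1.85). Their summed level was 3317 to 3961 CPM in yki3SA and 1135 to 1535 in yki3SA sd- of run 1 (controls 1333 to 1556). Of its defining genes, the transcription factor gene trh was at 11.2 to 16.4 CPM in yki3SA and 0 to 0.751 in yki3SA sd-, with a log2 fold change of -3.84 ± 0.53 (SE), adjusted p = 4.36e-06. The other, the FGF receptor gene btl, went the opposite way. It was at 0.341 to 0.953 CPM in yki3SA and 0.6254 to 0.9581 in yki3SA sd- of run 1, groups that overlapped, and at 0.722 against 3.23 and 4.38 in run 2 (log2 fold change 1.43 ± 0.49, adjusted p = 0.019). Without the run 2 yki3SA library 1 marker rose. The gap genes kni (-2.25 ± 0.18) and knrl (-2.15 ± 0.20) and the chitin deacetylase gene verm (-2.01 ± 0.55) fell with trh. The part of tracheal cells in these falls was not tested.

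The 15 largest rises held genes of axons, EGFR and Notch signalling and the ecdysone response. Ank2, an ankyrin of axons and synapses, was at 9.84, 13.6, 17.96, 13.6 and 12.7 CPM in the run 1 yki3SA libraries and 317, 412 and 246 in yki3SA sd-, and at 1.996 against 109 and 114 in run 2. Its log2 fold change was 4.59 ± 0.32 (SE), adjusted p = 1.94e-10. The protease gene ru, which helps to release EGFR ligands in the eye disc, was at 5.72, 10.2, 12.5, 12.6 and 11.8 CPM in yki3SA and 151, 303 and 146 in yki3SA sd- of run 1 (log2 fold change 4.32 ± 0.33, adjusted p = 7.78e-10). E(spl)mgamma-HLH, a Notch target in the eye disc, was at 55.9, 65.7, 75.6, 65.1 and 60.3 CPM in yki3SA and 844, 2227 and 586 in yki3SA sd- of run 1 (log2 fold change 4.10 ± 0.39, adjusted p = 1.64e-08). For each of these 3 genes every yki3SA sd- library of run 1 was above the highest yki3SA library. The rule for naming all 15 required this lack of overlap in run 1, which held for 43.7% of all genes. The serpin gene Spn100A had the largest rise (5.47 ± 0.61), from between 0.209 and 2.04 CPM to between 22.04 and 60.1 CPM in run 1. Vajk1 (CG16886, 4.97 ± 0.70), lectin-28C (4.46 ± 0.45), the phosphoserine phosphatase gene aay (4.28 ± 0.32), nolo (CG31619, 4.18 ± 0.36), the basement membrane glycoprotein gene Glt (4.14 ± 0.38) and Had2 (CG10131, 4.10 ± 0.36) rose too. So did CG43347, CG43861 and CG1273, by 4.27, 4.26 and 4.12.

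Photoreceptor differentiation genes rose almost throughout. Of 31 tested 29 rose, none fell, and Liprin-alpha (0.18) and B-H2 (0.34) did not pass. Their median was 2.42. The zinc finger gene sens, needed for the R8 founder photoreceptor, was at 1.51, 1.09, 1.88, 2.300 and 2.102 CPM in yki3SA and 21.7, 30.4 and 14.4 in yki3SA sd- of run 1, and at 0.467 against 16.9 and 16.1 in run 2 (log2 fold change 3.79 ± 0.29, adjusted p = 8.55e-10). The proneural gene ato, which selects R8, rose by 2.09 ± 0.43, the receptor gene sev of R7 by 3.39 ± 0.37 and nerfin-1 by 3.45 ± 0.32. Later factors rose as well, among them gl (2.67), ro (2.05), lz (2.83) and pros (3.38). The count was also 29 in run 1 alone and in run 2 alone.

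Neuronal genes followed, with 17 of 22 tested rising and 1 falling (Nrg, -0.47, and none without yki3SA sd- replicate 2), at a median of 2.58. The microtubule-binding protein gene futsch was at 17.6, 23.97, 27.4, 24.5 and 28.1 CPM in yki3SA and 422, 424 and 409 in yki3SA sd- of run 1, and at 3.86 against 81.7 and 71.7 in run 2. It had a log2 fold change of 4.05 ± 0.20 (SE), adjusted p = 1.05e-12, and the 3 yki3SA sd- libraries of run 1 lay close together. The ligand gene jeb (3.84 ± 0.31) and the active zone gene brp (3.65 ± 0.37) also rose, as did the neuronal splicing regulator elav (1.81 ± 0.11), which is on the lists of photoreceptor and central nervous system genes. Markers of central nervous system cells moved with these genes, with 5 of 9 tested rising and 1 falling. Of these markers pros is, like elav, also on the photoreceptor list, and dpn is on the Notch list. The summed level of the markers was 171.2 to 189.7 CPM in yki3SA, 539.4 to 676.1 in yki3SA sd- and 475.8 to 516.1 in controls of run 1. Most of that sum was elav, at 144 to 164 CPM in yki3SA and 445 to 613 in yki3SA sd-, so it is no measure of central nervous system cells separate from photoreceptors. Of its defining neuroblast genes mira was at 0.904 to 2.18 CPM in yki3SA and 8.26 to 14.9 in yki3SA sd- of run 1, and ase at 0 to 0.817 and 0 to 0.719. The neuroblast gene insc fell (-1.32 ± 0.33). Of 8 tested glial markers 4 rose and 1 fell (2 without yki3SA sd- replicate 2), beside 24.9% and 28.1% of all genes. Their sum was lower in yki3SA sd-, at 230.7 to 320.6 CPM against 356.3 to 409.7 in run 1 and 619.3 to 631.3 against 803 in run 2. The pan-glial gene repo was at 0.402 to 1.62 CPM in yki3SA and 3.13 to 22.04 in yki3SA sd- of run 1, whereas the sodium pump subunit gene nrv2, which fell (-1.33 ± 0.17), was at 195 to 261 and 49.1 to 129.8. The part of brain or glial cells in the neuronal rises was not tested.

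Most genes that specify the eye field rose. Of 17 tested genes of retinal determination 13 rose and none fell (median 1.85). The gene dac, which encodes a nuclear cofactor of eye specification, was at 6.23, 15.1, 13.8, 13.9 and 14.1 CPM in yki3SA and 126, 178 and 97.8 in yki3SA sd- of run 1, and at 11.2 against 204 and 231 in run 2 (log2 fold change 3.40 ± 0.29, adjusted p = 4.34e-09). The Pax genes ey (1.89 ± 0.19), toy (1.85 ± 0.13) and eyg (3.20 ± 0.32), the homeobox gene so (1.88 ± 0.21) and the phosphatase gene eya (1.73 ± 0.43) rose, as did danr (3.00 ± 0.29) and dan (2.85 ± 0.36). The log2 fold changes of hth (0.22), tsh (0.00) and tio (0.08) did not pass, nor did that of dpp (-0.19). Among antennal selectors 13 of 17 tested rose and none fell (median 1.87). The homeobox gene ct was at 47.00, 47.8, 52.4, 50.7 and 47.2 CPM in yki3SA and 399.7, 449 and 296 in yki3SA sd- of run 1 (log2 fold change 2.90 ± 0.17, adjusted p = 1.78e-11). The genes ss (2.54) and Dll (1.04) were among the others. The lists share dan, danr and hth.

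Notch pathway genes and targets were higher, with 19 of 22 tested rising and 1 falling (the glycosyltransferase gene fng, -1.41 ± 0.24), at a median of 1.66. E(spl)m8-HLH was at 18.8 to 26.7 CPM in yki3SA and 191 to 234 in yki3SA sd- of run 1 (3.10 ± 0.23 on the log2 scale) and E(spl)m5-HLH at 1.004 to 1.91 and 6.94 to 51.5 (3.99 ± 0.52). E(spl)m6-BFM had the largest fitted value of the list (4.45 ± 0.90) at under 1 CPM in all 11 libraries, and its run 1 groups overlapped. The ligand gene Dl rose (1.15 ± 0.13), and the receptor gene N less (0.31 ± 0.09). Of 28 tested genes of the EGFR, Dpp and Wg pathways 11 rose and 5 fell (median 0.15), and 3 fell without yki3SA sd- replicate 3. Over all genes 24.9% rose and 28.1% fell. The rises were led by genes of EGFR signalling, namely ru, the transcription factor gene pnt (2.86 ± 0.19), the protease gene rho (2.71 ± 0.18) and the inhibitor gene aos (2.56 ± 0.33). Of these, ru, rho and aos are also on the photoreceptor list. The receptor gene Egfr itself fell (-0.80 ± 0.10), and dpp and wg did not pass.

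Most genes of the ecdysone response rose. Of 25 tested genes of this response and of temporal identity 15 rose and 4 fell (median 0.88). The ecdysone-inducible gene ImpE2 was at 81.3, 84.7, 73.9, 194 and 170.3 CPM in yki3SA and 946, 757 and 1375 in yki3SA sd- of run 1, and at 0.807 against 3756 and 2853 in run 2 (log2 fold change 4.07 ± 0.73, adjusted p = 9.21e-05). The nuclear receptor gene Hr3 (Hr46) was at 2.11, 0.817, 2.09, 7.495 and 2.496 CPM in yki3SA and 85.8, 44.1 and 44.9 in yki3SA sd- of run 1 (log2 fold change 4.55 ± 0.60, adjusted p = 1.98e-06). Blimp-1 (3.99 ± 0.54), ImpE1 (3.84 ± 0.53) and the temporal factor gene br (1.31 ± 0.22) rose, whereas the juvenile-stage genes chinmo (-2.66 ± 0.22) and Imp (-1.19 ± 0.13) and the receptor gene EcR (-0.54 ± 0.12) fell. For 13 of the 25 a difference between the runs passed the test. Ring gland genes, which make ecdysone, were present at varying levels. Of 8 tested 5 rose over both runs and 3 without the run 2 yki3SA library. In run 1 alone 0 passed, and there the adjusted p of spok, phm and nvd was 0.0787, 0.111 and 0.094. The summed level was 7.73 to 41.6 CPM in yki3SA and 11.7 to 144.1 in yki3SA sd- of run 1, against 58.9 in yki3SA and 824.3 to 954.3 in yki3SA sd- of run 2. Controls were at 7.21 to 205.6 CPM in run 1 and 120.6 to 365.5 in run 2, and sd- at 7.19 to 211.1 and 521.8 to 722.6. The defining genes phm, spok and nvd were at 1.25 to 12.9, 1.04 to 10.8 and 0.136 to 4.07 CPM in yki3SA of run 1. The part of attached ring gland in the ecdysone response was not tested.

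**Figure D3:**
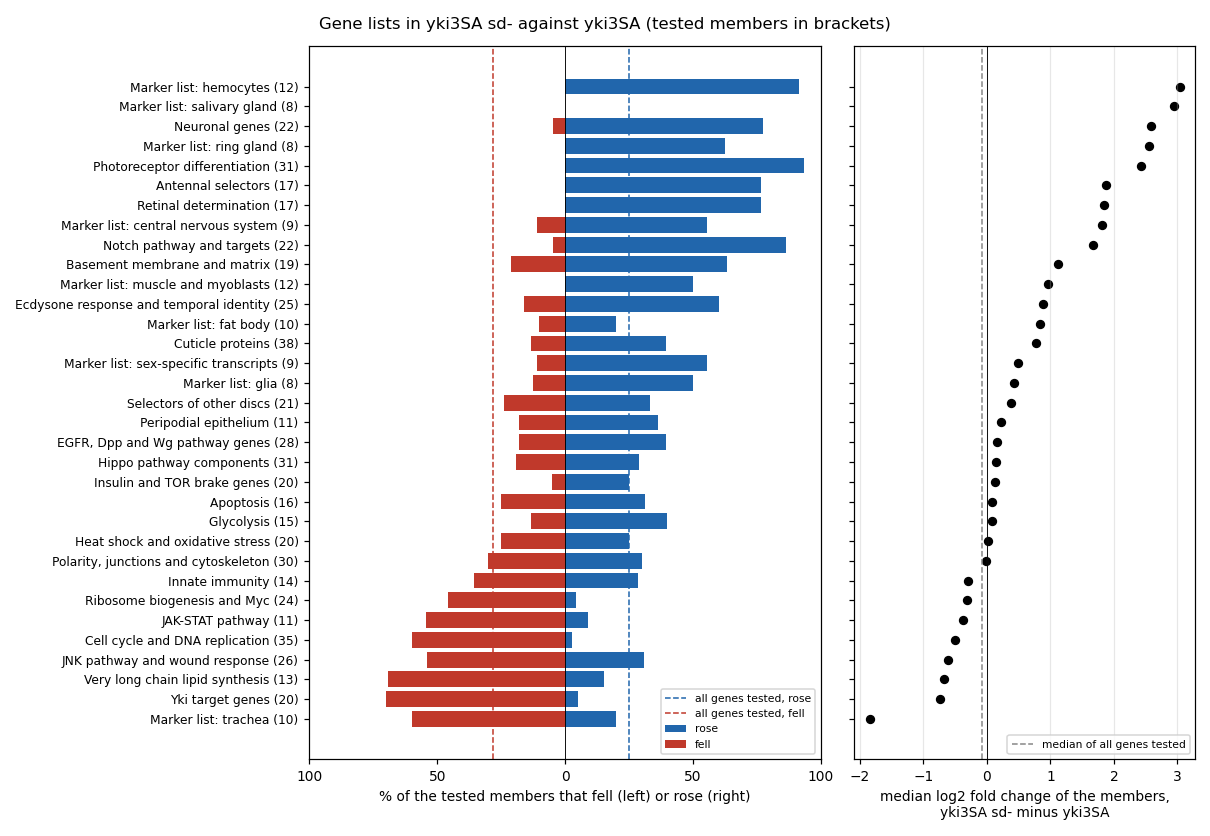
Share of the tested members of each gene list that rose (right of 0, %) or fell (left of 0, %) in yki3SA sd- against yki3SA, with dashed lines at the shares over all genes tested (24.9% and 28.1%), and the median log2 fold change of each list beside it. Photoreceptor, Notch and hemocyte lists rise in most members, and the lists of Yki targets, very long chain lipid synthesis, cell cycle and trachea fall in most.

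Basement membrane and matrix genes were higher, with 12 of 19 tested rising and 4 falling (median 1.12), and 2 falling without yki3SA sd- replicate 1. The collagen gene Col4a1 (Cg25C) was at 19.4, 10.2, 11.7, 14.6 and 12.4 CPM in yki3SA and 292, 246 and 113 in yki3SA sd- of run 1, and at 10.96 against 27.8 and 35.7 in run 2 (log2 fold change 3.35 ± 0.36, adjusted p = 1.08e-07). The peroxidasin gene Pxn (3.33 ± 0.40), the second collagen gene vkg (2.28 ± 0.23), Ppn (2.47 ± 0.27) and trol (1.88 ± 0.19) rose, and Timp and Mmp1 fell as above. Hemocytes secrete several of these proteins, and hemocyte markers rose with them, 11 of 12 tested (median 3.03). Pxn and Col4a1 are on both the matrix and the hemocyte list, and lz is also on the photoreceptor list. The sum of the markers was 100.9 to 122.5 CPM in yki3SA, 1014 to 3782 in yki3SA sd- and 330.6 to 653.8 in controls of run 1, against 126.6 in yki3SA and 202.4 to 230.1 in yki3SA sd- of run 2. The hemolectin gene Hml was at 3.62, 2.45, 3.76, 4.85 and 3.81 CPM in yki3SA and 147, 173 and 54.4 in yki3SA sd- of run 1, and at 9.09 against 9.38 and 15.8 in run 2, where it did not pass in run 2 alone (adjusted p = 0.159). The crystal cell genes PPO1 and PPO2 rose in run 1, PPO2 from between 12.9 and 28.02 CPM to between 485 and 2528 CPM, and were lower in yki3SA sd- of run 2, at 0.447 and 2.87 CPM against 32.99. The defining genes NimC1 and He were low, and their run 1 groups overlapped. NimC1 was at 0.136 to 1.28 CPM in yki3SA and 0.24 to 4.003 in yki3SA sd- of run 1, and He at 0.131 to 0.272 and 0 to 0.5003. In run 2 NimC1 was at 1.49 CPM against 5.71 and 5.99, and He at 1.66 against 2.82 and 5.63. The part of hemocytes in the matrix genes was not tested.

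Genes of polarity, junctions and cytoskeleton showed no common direction, with 9 of 30 tested rising and 9 falling (median -0.01), near the 24.9% and 28.1% of all genes. The villin-like gene qua rose from between 2.51 and 6.538 CPM to between 34.9 and 52.2 CPM in run 1 (3.38 ± 0.30 on the log2 scale), and f (3.87 ± 0.90), jv (1.67 ± 0.41) and the actin gene Act87E (1.61 ± 0.35) rose, with run 1 levels of 5.75 to 11.1 CPM for jv in yki3SA sd-. Myosin light chain gene sqh fell (-1.34 ± 0.38). Of 38 tested cuticle protein genes 15 rose and 5 fell (median 0.77), which were Cpr12A, Lcp9, TwdlQ (-7.18 ± 0.69), Lcp65Ac and Cpr67B. Without yki3SA sd- replicate 3 of run 1, 8 fell. Of 14 tested genes of innate immunity 4 rose and 5 fell (median -0.31), beside 24.9% and 28.1% of all genes. BomS1 (IM1) was at 2.81 to 5.12 CPM in yki3SA and 0 to 0.257 in yki3SA sd- of run 1 (-6.26 ± 0.79), and PGRP-LC at 3.81 to 4.39 and 17.3 to 32.1 (2.57 ± 0.24). PGRP-LA rose (2.15 ± 0.27). PGRP-LF (3.76 ± 1.25) was detected in a single run 1 library, yki3SA sd- replicate 2, and missed the threshold without the run 2 yki3SA library (adjusted p = 0.0563), when 2 genes of the list rose. Among 20 tested genes of heat shock and oxidative stress 5 rose and 5 fell (median 0.01), again near those shares. The small heat shock genes Hsp67Bc (3.72 ± 0.31) and Hsp67Ba (2.93 ± 0.31) rose. The inducible chaperone gene Hsp70Bb fell (-2.72 ± 0.45), as did the glutathione transferase gene GstD2 (-3.77 ± 0.64).

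Of 11 tested peripodial genes 4 rose and 2 fell (median 0.22). These and the other counts over both runs in this paragraph stand beside 24.9% rising and 28.1% falling over all genes. The summed level of the list was 4852 to 5689 CPM in yki3SA of run 1 and 9153 to 12860 in yki3SA sd-. Most of that difference was in a single gene. The peptidase gene Ance rose from between 608 and 824 CPM to between 3739 and 6988 CPM in run 1 (3.03 ± 0.26), with the transcription factor genes Sox21b and pnr (2.01 ± 0.36), and drm fell (-1.23 ± 0.29). Of 12 tested muscle and myoblast markers 6 rose (median 0.96), led by zfh1 (2.62 ± 0.13), htl (2.47 ± 0.36), twi (2.12 ± 0.50) and sns (1.98 ± 0.28). Of these, sns is also on the photoreceptor list. The defining gene twi was low, at 0.301 to 0.681 CPM in yki3SA and 0 to 4.003 in yki3SA sd- of run 1, groups that overlapped. In run 2 twi was at 0.297 CPM against 1.90 and 2.23. The sum of the markers in run 1 was 98.6 to 150.4 CPM in yki3SA and 184.8 to 242.2 in yki3SA sd-. The defining gene Mef2 did not pass, at 50.9 to 59.7 CPM in yki3SA and 40.4 to 72.3 in yki3SA sd- of run 1 and 44.3 against 29.4 and 32.3 in run 2, nor did the myosin gene Mhc (-0.33). The median of these markers was 1.04 within run 1 and 0.64 within run 2. Of 10 fat body markers 2 rose and 1 fell, regucalcin rising by 3.40 ± 0.27 and FASN1 (CG3523) falling (-1.42 ± 0.18). The list went opposite ways by run, with a median of 1.95 in run 1 and -1.59 in run 2. In run 1 alone 6 rose, beside 27.4% of all genes there. Its sum was 126.8 to 176 CPM in yki3SA and 477.1 to 967.5 in yki3SA sd- of run 1, against 470.8 and 270.7 to 281.8 in run 2. The storage protein gene Lsp1beta was at 2.61 to 6.701 CPM in yki3SA and 13.6 to 28.03 in yki3SA sd- of run 1, and at 64.4 against 0.682 and 1.17 in run 2 (adjusted p of the difference between runs = 0.00095). The 8 salivary gland markers had a median of 2.95 over both runs and -1.12 in run 1, and their sum in run 1 was 9.84 to 62.9 CPM in yki3SA and 8.87 to 27.8 in yki3SA sd-. The glue gene Sgs7 (adjusted p = 0.158) was at 1.105, 11.4, 16.3, 20.4 and 15.4 CPM in yki3SA and 0.643, 0.479 and 7.51 in yki3SA sd- of run 1. Of 9 tested transcripts with sex-specific roles 5 rose and 1 fell, the last being fru, at 457 to 635 CPM in yki3SA and 162 to 207 in yki3SA sd- of run 1 (-2.02 ± 0.22). The male-specific RNA roX1 was at 5.62 to 11.3 CPM in yki3SA and 4.63 to 9.34 in yki3SA sd- of run 1.

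The levels were also set beside those of the other MARCM genotypes, in comparisons that share libraries with the one above. Against controls, 3070 genes (34.4%) passed in yki3SA and 1491 (16.7%) in yki3SA sd-, and against sd- alone 12 genes (0.134%) passed in yki3SA sd-, 3 up (0.0336%) and 9 down (0.101%). Such counts do not show that the remaining genes were at equal levels. In run 2 the controls shared arm and driver with the yki3SA library and not with the yki3SA sd- libraries. There, arm, driver and genotype cannot be told apart for yki3SA sd- against controls. The run 1 controls held vg at 2.69 to 5.24 CPM and the sd- libraries at 3.06 to 5.48, beside the yki3SA and yki3SA sd- values above. Its log2 fold change against controls was 4.78 ± 0.17 (adjusted p = 4.36e-15) in yki3SA and -0.20 ± 0.18 (adjusted p = 0.417) in yki3SA sd-. For Pvf3 these values were 4.59 ± 0.15 and -0.17 ± 0.15, and for os 3.16 ± 0.21 and -0.64 ± 0.23. For sens they were -3.48 ± 0.28 and 0.32 ± 0.24, and for ImpE1 -3.47 ± 0.51 and 0.37 ± 0.46. Of these 5 genes, each passed in yki3SA and none passed in yki3SA sd-, whose adjusted p-values against controls ran from 0.0606 for os to 0.569 for ImpE1. The axonal genes Ank2 (1.13 ± 0.27, adjusted p = 0.0195) and futsch (0.86 ± 0.17, adjusted p = 0.0112), the hemocyte gene Hml (1.71 ± 0.48, adjusted p = 0.0251) and wts (0.52 ± 0.14, adjusted p = 0.0238) were above controls in yki3SA sd-. The gene sd was below them (-0.35 ± 0.10, adjusted p = 0.0287).

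By list, the median log2 fold change against controls was 0.61 in yki3SA and 0.10 in yki3SA sd- for the 20 Yki targets. It was -2.44 and 0.24 for photoreceptor genes and -1.97 and 0.63 for neuronal genes. For retinal determination it was -1.85 and 0.08, and for the cell cycle 0.51 and -0.11.

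**Figure D4:**
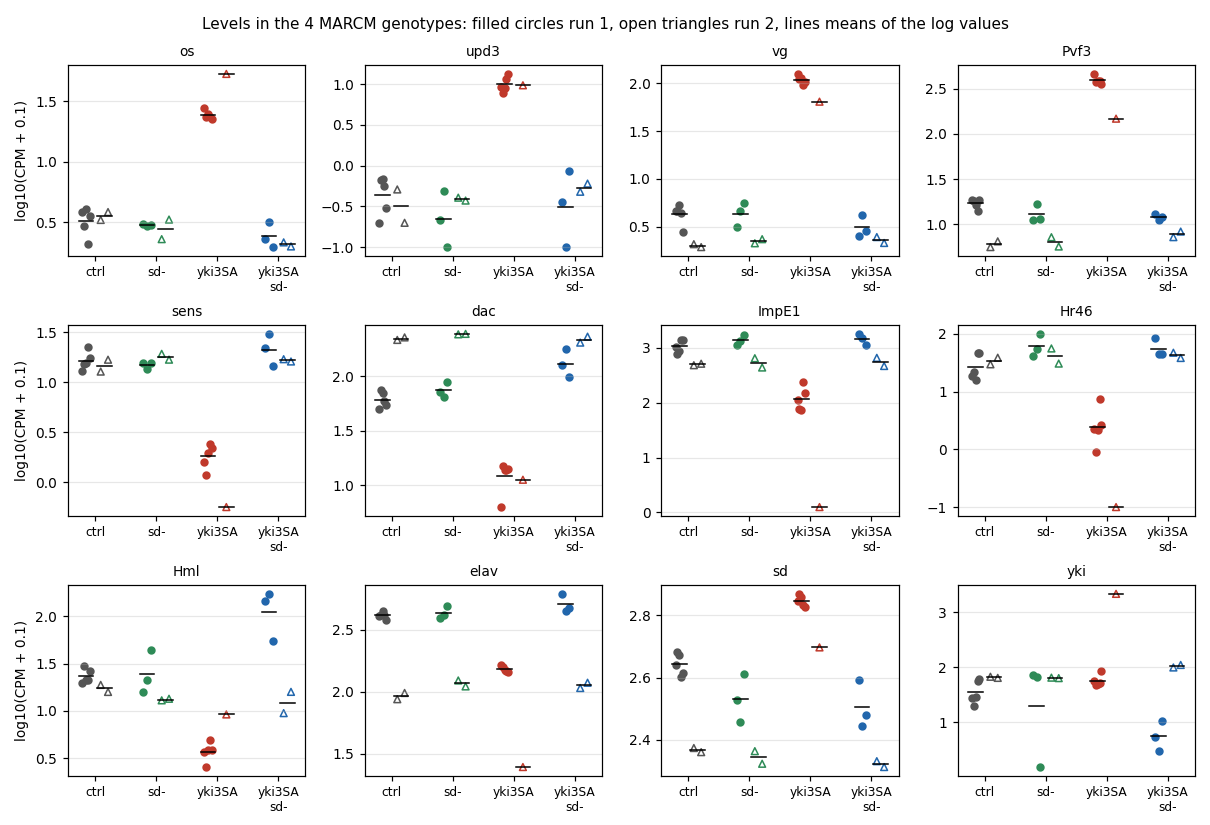
Levels of 12 genes as log10(CPM + 0.1) in MARCM control, sd-, yki3SA and yki3SA sd- libraries, with 1 point per library, filled circles for run 1, open triangles for run 2 and a line at each mean of the log values. The yki3SA libraries stand apart for os, upd3, vg, Pvf3, sens, dac, ImpE1 and Hr46, Hml is highest in run 1 yki3SA sd- (54.4 to 173.2 CPM), and yki is lowest in run 1 yki3SA sd- apart from 1 sd- library.

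The comparison was also set against a separate experiment of the same study that shares no library with it. In that experiment discs were largely made of cells mutant for wts (y w ey-FLP, FRT82B cl- over FRT82B wts149, 2 libraries), with FRT82B discs without the mutation as controls (3 libraries). In the eyFLP discs 2824 of 7973 genes passed, and at least 2-fold changes comprised 423 raised and 861 lowered genes. Of the 412 raised genes tested here, 299 (72.6%) fell in yki3SA sd- against yki3SA and 22 (5.34%) rose, beside 28.1% and 24.9% of all genes. Their median log2 fold change was -1.45. Of the 846 lowered genes tested here, 702 (83%) rose and 15 (1.77%) fell, with a median of 2.19. In run 1 alone 264 of the raised genes fell and 633 of the lowered genes rose. Raised in wts mutant discs and lower in the libraries labelled yki3SA sd- were os (3.79 in eyFLP, -3.80 here), upd3 (6.96 and -4.55), vg (2.63 and -4.98) and grn (2.25 and -2.94). In the other direction went sens (-4.76 and 3.79), dac (-4.33 and 3.40) and Ank2 (-4.93 and 4.59). Cpr12A did not pass in eyFLP (1.24).

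The direction of change was the same in both runs for most genes, and its size often was not. In run 1 alone 4500 of 8372 genes (53.8%) passed and in run 2 alone 6108 of 9521 (64.2%). Of the 4731 called genes 4349 (91.9%) had the same sign in both runs, beside 70.1% of all genes tested, and Pearson's r across genes was 0.53. Both runs entered the calls, and genes are not independent replicates, so these values describe the data only. A difference between the runs passed for 996 genes (11.2%), 578 with the higher value in run 2 (6.47%) and 418 with the lower (4.68%). Without yki3SA sd- replicate 3 of run 1 that number was 3056, and without one of the run 2 yki3SA sd- libraries it was 538 or 532. The fit takes the lone yki3SA library of run 2 to have the spread of the other groups. Its other arm and driver cannot be told apart from the run.

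**Figure D5:**
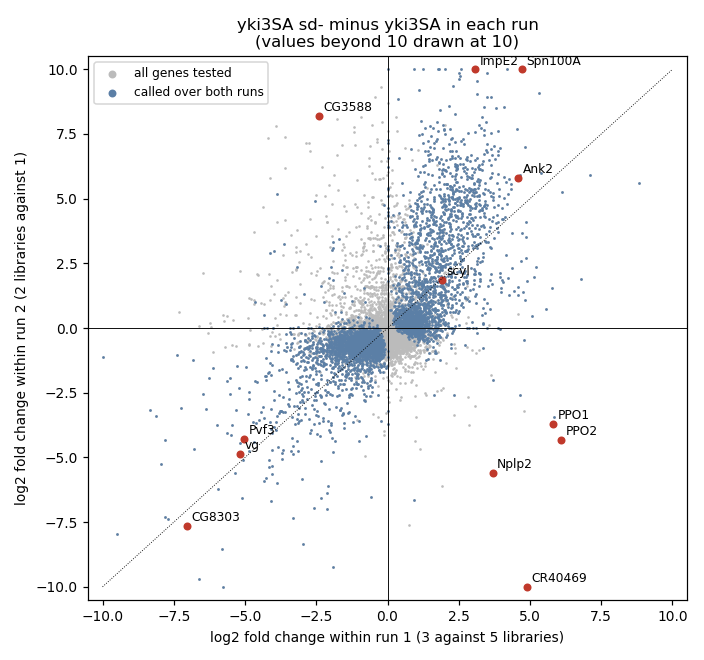
Log2 fold change of yki3SA sd- minus yki3SA within run 2 (vertical axis, 2 libraries against 1) against that within run 1 (horizontal axis, 3 against 5 libraries), with 1 point per gene, genes called over both runs in blue and named genes in red. Points beyond 10 are drawn at 10. vg, Pvf3, CG8303, Ank2 and scyl lie near the diagonal or in its quadrant, and PPO1, PPO2, Nplp2, CR40469 and CG3588 lie in quadrants of opposite sign.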

How the data were processed

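Eye-antennal discs were measured by QuantSeq 3' end sequencing of polyadenylated RNA, per the labels' protocols. The values are counts per gene and library, deposited by the authors without normalization. Per the submitters' processing notes, reads were handled with cutadapt and FastQC and aligned to dm6 with STAR 2.6.1d. No source used here gives the counting tool, strand setting or annotation, so values of overlapping, antisense or near-identical genes are uncertain. Total counts per library ranged from 4874192 to 18528214 among the 11 libraries compared, which limits precision for genes of a few CPM. Of 16727 symbols 16590 were matched to a position, and current names are given in brackets or beside the symbol (os is upd1, dm is Myc, th is Diap1, E2f is E2f1, phm is phtm).

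The 23 MARCM libraries were fitted together with group and run as terms, after filterByExpr and TMM scaling, by quasi-likelihood in edgeR 4.0.16 (R 4.3.3), and p-values were adjusted over all genes tested by the Benjamini-Hochberg method with a threshold of 0.05. The script was tested on simulated data. Standard errors derive from the F statistic and are approximate. CPM were computed with the TMM factors. The difference between the runs was tested in a fit of group and run means. The eyFLP lists came from a fit of the 5 eyFLP libraries alone. The members, the gene lists and the tests were chosen with earlier results of these data known. Genes were named by a rule, which took yki, wts and sd, then 15 rises and 15 falls by size among called genes averaging 10 CPM or more in the group with the higher level, no overlap in run 1 and the same sign in run 2, then up to 4 called members of each list by size, then 5 per direction for the run difference. Other list members with values in the text were chosen after their values were seen. Positions come from the Ensembl annotation of the same assembly. Alternatives were other scalings and filters, DESeq2 1.42.0, limma-voom (limma 3.58.1), the 11 libraries alone, each run alone, no run term, a replicate block, a fold threshold and each library left out.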

Additional observations from a re-analysis of the deposited data

Results flagged for a closer look

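Among the 149 named genes, the 5 yki3SA libraries of run 1 held 1 library far from the others for 19, where chance alone flags about 1 in 20 groups. The yki3SA library 5 was highest for yki (85.5 CPM, next 56.3), drm (281.3), msl-2 (10.4) and Eaat1 (0.788). The yki3SA library 1 was highest for kni (931.7 CPM, next 610.4), knrl (224.5), Pvf3 (463.1, next 383.5), CG32444 (18.7), sit (CG5278, 18.2) and dib (0.502), and lowest for dac (6.23) and egr (4.32). The yki3SA library 4 was highest for Hr46 (7.50 CPM, next 2.496), Glt (12.9), Hsp67Ba (38.2) and E(spl)m6-BFM (0.0852). The yki3SA library 3 was highest for nerfin-1 (6.27 CPM), and library 2 was highest for ase (0.817) and lowest for Treh (11.9).

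The contrast of yki3SA sd- with yki3SA differed between the runs for 996 genes, among them 56 of the 149 named genes. In the edgeR quasi-likelihood test the adjusted p of the difference was 1.51e-06 for CR40469, 1.84e-05 for PPO1, 6.14e-05 for PPO2, 4.83e-05 for Nplp2 and 0.0177 for CG17109, with a lower fold change in run 2 than in run 1. It was 0.00018 for CG3588, 9.5e-05 for CG33509, 0.0207 for Cpr97Ea, 0.0246 for CG12310 and 0.04 for the glue gene Sgs8, with a higher fold change in run 2. For PPO1, of crystal cells, run 1 held 4.02, 6.81, 10.03, 9.96 and 5.12 CPM in yki3SA and 544, 478 and 190.4 in yki3SA sd-, and run 2 held 19.2 against 0.653 and 2.296. For CG3588 run 1 held 10.4 to 16.1 CPM in yki3SA and 0.772 to 4.31 in yki3SA sd-, and run 2 held 0 against 1.82 and 3.23. Sgs8 was at 1.41 and 26.1 CPM in the run 2 yki3SA sd- libraries.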

How the results depend on the processing

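Counts of called genes stayed within 1.5 times under the other scalings, filters and tools, with each run alone and with the 11 libraries alone, except that 2317 genes passed with no run term (1259 rising, 1058 falling) and 2412 with at least a 2-fold change (1381 and 1031). Rises were 47.05% of calls, 53.78% with DESeq2-type factors and 55.35% with upper-quartile factors. Leaving out each library in turn gave 4195 to 4841 calls, 2097 to 2323 rising and 1872 to 2546 falling. Of genes raised in eyFLP, those falling numbered 281 to 294 with a library left out, 179 with a mean of at least 10 CPM, 812 with no fold threshold on the list and 141 at 4-fold. Of those lowered, 678 to 731 rose with a library left out and 363 with a mean of at least 10 CPM. The run difference gave 1522 genes with limma-voom and 532 to 3056 with a library left out. With the replicate block (the library number as a factor) 3861 genes passed, 1864 rising and 1997 falling. The numbers gave correlations of 0.134, 0.0737 and -0.132 between same-numbered run 1 libraries, and not every library correlated best with its own number. Such weak correlations cannot show whether same-numbered samples were prepared together, and the main fit did not use the number. Of 149 named genes 144 kept their side of the threshold under the block. In run 2 alone the values of PPO2 (-4.17), PPO1 (-3.56), CR40469 (-12.48), Nplp2 (-5.46) and CG3588 (9.20) reversed, where those of CR40469 and CG3588 are fitted against a group at 0 counts, depend on the prior count and give no size. With a library left out, rising cell cycle genes numbered 1 to 4, rising salivary gland markers 0 to 3 and falling glycolysis genes 0 to 2. The causes were not tested. Genes under about 1 CPM, such as E(spl)m6-BFM, are limited by depth.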

Other observations

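The noncoding RNA CR40469, on the X chromosome, was at 317, 379, 433, 307 and 311 CPM in the run 1 controls, 461, 407, 653, 311 and 384 in yki3SA and 20931, 23356 and 27038 in sd-. In yki3SA sd- of run 1 it was at 15947, 1899 and 21280 CPM, so that replicate 2 lay between the other libraries with sd47M and those without it, and whether it mixes genotypes was not tested. In run 2 it was at 28.3 and 25.7 CPM in controls, 27.3 in yki3SA and 0 and 0 in yki3SA sd-, so that the order of the groups was the opposite of that in run 1. The fitted log2 fold change over both runs was 3.65 ± 1.35 (SE), adjusted p = 0.028, and it missed the threshold when any of several libraries was left out.

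By chromosome arm, 26% of the 1516 tested genes of the X rose and 25.9% fell in yki3SA sd- against yki3SA. On 2L 22.5% rose and 31% fell, on 2R 23.8% and 28.2%, on 3L 26.5% and 27%, and on 3R 24.9% and 28.7%. The 84 tested genes of the small chromosome 4 held 41.7% rising and 17.9% falling, with a median log2 fold change of 0.20. Differences between arms were not tested.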
